A study of Mus musculus with 96 samples.

Results

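The clones described here are 173 leukaemia clones of GMP origin that took up a middling share of the cell pool before transplantation and did not come to dominate any recipient tissue. They were chosen by their measured CPM (barcode reads scaled to a common library total), as the mCherry-library barcodes at or over 1000 and under 5000 CPM in the GMP pool that stayed under 10000 CPM in all 31 bone marrow and spleen libraries of mice that received GMP-derived cells. Of 4675 barcodes in the deposited tables, 3078 belonged to the mCherry library and 607 of those reached 100 CPM in the GMP pool. A further 9 barcodes lay in the same pool range but reached at least 10000 CPM in some library and are left out. Because the rule used the pool and set an upper limit on every one of these libraries, the low summed level of the clones is a result of the choice, and their levels and folds over the pool are a description.

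The series followed mouse leukaemias driven by the MLL-AF9 fusion oncogene, delivered by retrovirus, and marked with SPLINTR DNA barcodes that sequencing can count. The starting cells came from the bone marrow of female C57BL/6 mice aged 6 to 8 weeks and were grown with IL-3, IL-6 and SCF. LSK cells (Lin- c-Kit+ Sca-1+) carried the GFP barcode library, and GMP cells (Lin- c-Kit+ CD34+ FcγR high) carried the mCherry library. All groups share MLL-AF9, and each mouse is the replicate. The recipients used here were 4 Ptprca mice with GMP cells alone (mice 5 to 8), 4 Ptprca mice with LSK and GMP cells together (mice 17 to 20), 4 NSG mice with GMP cells alone (mice 13 to 16) and 4 NSG mice with both (mice 21 to 24). Mouse 24 had a spleen library only. The 7 recipients of LSK cells alone served as background. Ptprca mice are immunocompetent and carry a different CD45 allele, while NSG mice have no mature lymphocytes or natural killer cells. The age of the recipients and the number of cells they received are not given in the sources used here. Both hosts are set against the same pool libraries, so a clone is the same barcode in each of them.

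A DNA barcode integrated into the genome is copied at each division, so the share of a barcode among all barcode reads follows the share of its clone among the labelled cells. GMP cells are committed myeloid progenitors with little capacity to renew themselves, and MLL-AF9 gives them the capacity to start leukaemia. In transplanted leukaemias of this kind, a few clones commonly supply most of the disease while many injected clones leave few or no descendants. The values below are shares: a clone can lose share by shrinking or because other clones grew more, and these cannot be told apart here.

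Libraries held 4257581 to 8499553 reads in total, and those of the 16 mice held 1562645 to 7341241 mCherry reads. Levels are given as own-library CPM, scaled to the mCherry reads of the library alone, so that the LSK-derived share of a mixed recipient does not enter. A clone with no read could hold up to 0.409 to 1.92 own-library CPM, the level of 3 reads. In the 14 libraries of mice that received LSK cells alone, which the rule did not use, no member exceeded 6.76 CPM, and a median of 2 members had any read. The bone marrow libraries of mice 1 and 12 were exceptions, with reads of 101 and 96 members that summed to 27.9 and 36.0 CPM.

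Of the 31 libraries, 6 stood apart, either because 0.1% or more of reads carried barcodes of a cell type not injected into that mouse, or because 1% or more carried barcodes absent from all pools. These were the marrow of mice 6 and 8 and the spleens of mice 7, 13, 14 and 18. Mixed recipients received both cell types, so their libraries could be set apart by the second criterion only. The marrow of mouse 8 was the only library in which all 173 members had a read. In it, the 143 members under 100 own-library CPM followed the pool in rank (Spearman's rho 0.725 across clones of 1 library), and the median member stood at 9.75 own-library CPM. Whether these low reads came from living cells was not tested. For this reason a level of 100 own-library CPM is used below as the mark of a clone that survived.

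Before transplantation the members were evenly represented in both pools. They held 38.8% of mCherry reads in the GMP pool, with a lowest clone of 1003, a median of 1934 and a highest of 4944 CPM. They held 38.9% of mCherry reads in the mixed pool. The share of a member in the mixed pool was 0.998 ± 0.0985 times its share in the GMP pool (mean and SD over 173 clones, 1 library of each pool), with a range of 0.739 to 1.40. The members therefore entered both kinds of recipient at nearly equal shares of the GMP-derived cells.

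Survival was uncommon in each recipient, and more members were found in Ptprca than in NSG mice. In Ptprca mice with GMP cells alone, 39, 36, 35 and 23 members reached 100 own-library CPM in mice 5, 6, 7 and 8, or 33.3 ± 7.04 (SD, n = 4). In Ptprca mice with both cell types, 26, 23, 28 and 30 did so in mice 17 to 20, or 26.8 ± 2.99 (SD, n = 4). In NSG mice with GMP cells alone the counts were 12, 10, 6 and 9 in mice 13 to 16, or 9.25 ± 2.50 (SD, n = 4). In NSG mice with both cell types they were 5, 6, 3 and 12 in mice 21 to 24, or 6.50 ± 3.87 (SD, n = 4). The Ptprca counts did not overlap the NSG counts, whereas recipients with and without LSK cells overlapped within each host.

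Members with any read numbered 85 to 173 per mouse in Ptprca recipients of GMP cells and 72 to 78 in Ptprca mixed recipients. In NSG mice they numbered 33 to 90 and 14 to 51. At 1000 own-library CPM or more, the means were 7 ± 2.16, 5.50 ± 1.91, 2.50 ± 0.577 and 2.00 ± 2.16 members per mouse in the same order of groups (SD, n = 4 each). Group means were higher in Ptprca mice at each of these levels. Between hosts the ranges overlapped for any read in recipients of GMP cells alone and at 1000 own-library CPM in mixed recipients.

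As a sum, the members fell to a small part of their share in the pool. They held 2.54%, 2.68%, 2.72% and 1.65% of mCherry reads in Ptprca mice 5 to 8, a mean of 0.0617 ± 0.0129 times the pool (SD, n = 4). In Ptprca mixed recipients they held 2.23%, 2.06%, 1.92% and 1.65% in mice 17 to 20, or 0.0505 ± 0.00637 times the mixed pool (SD, n = 4). NSG mice 13 to 16 held 0.871%, 0.753%, 0.946% and 0.932%, or 0.0225 ± 0.00226 times the pool (SD, n = 4). NSG mixed recipients 21 to 24 held 0.460%, 0.498%, 0.114% and 1.91%, or 0.0192 ± 0.0204 times the mixed pool (SD, n = 4). Mouse 24, known from its spleen alone, lay within the Ptprca range, and the other NSG mice lay below it. The mean share of the NSG mixed recipients was 0.746%, and 0.357% without mouse 24.

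A surviving member typically held less than its share in the pool. Among members at or over 100 own-library CPM, the median fold over the pool was 0.188 ± 0.0299 in Ptprca mice with GMP cells alone and 0.154 ± 0.0416 in Ptprca mixed recipients (mean and SD of the mice's medians, n = 4 each). It was 0.300 ± 0.240 in NSG mice with GMP cells alone and 0.246 ± 0.0455 in NSG mixed recipients (SD, n = 4 each), and the ranges of the hosts overlapped. The 100 CPM mark sets a lower limit on these folds. The 5 highest members of each mouse made up 39.6% ± 2.90 and 52.9% ± 5.15 of the members' reads in the Ptprca groups, without and with LSK cells. In the NSG groups they made up 84.8% ± 5.63 and 90.6% ± 1.89 (SD, n = 4 each), above each of the Ptprca mice.

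Most members that survived did so in a few mice, and 15 recurred in nearly all Ptprca recipients. Over both hosts, 74 members reached 100 own-library CPM as the mean of a mouse's tissues in at least 1 mouse, and 99 (57.2%) did so in none. In Ptprca mice 103 members reached that level in no mouse, 43 in 1 to 3, 12 in 4 to 6 and 15 in 7 or 8 of the 8 mice. In NSG mice 144 reached it in none, 17 in 1, 12 in at least 2, and none in all 8. Of the 70 members that survived in some Ptprca mouse, 25 (35.7%) survived in some NSG mouse. Those 25 made up 86.2% of the 29 members that survived in some NSG mouse. The other 4, mCHERRY_2_Barcode_156744, mCHERRY_2_Barcode_285518, mCHERRY_2_Barcode_71607 and mCHERRY_2_Barcode_820635, reached that mean in 1 or 2 NSG mice and in no Ptprca mouse. They are named after their values were seen. In single marrow libraries of Ptprca mice, mCHERRY_2_Barcode_156744 and mCHERRY_2_Barcode_820635 passed the mark, with highest levels of 103 and 134 own-library CPM.

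The 15 members found in at least 7 Ptprca mice entered the pool at 1146 to 4843 CPM. They made up 61.2% of the members' summed level in Ptprca recipients of GMP cells and 75.9% in Ptprca mixed recipients. In NSG mice they made up 69.5% and 18.2% respectively. The last value rests on mouse 24, in whose spleen they made up 5.64%, and without that mouse it was 40.5%. Of these 15, 10 reached 100 own-library CPM in some NSG mouse and 4 did so in at least 4 NSG mice.

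Members in the highest band of pool level were most often found again. Of 62 members between 1000 and 1500 CPM in the pool, 16 (25.8%) reached 100 own-library CPM in some Ptprca mouse, against 25 of 43 (58.1%) between 3000 and 5000 CPM. The bands between, of 1500 to 2000 and 2000 to 3000 CPM, gave 44.8% and 41.0%. The same shares in NSG mice were 11.3%, 6.90%, 17.9% and 30.2% from the lowest to the highest band. From the lowest to the highest band, the mean fold over the pool was 0.0504, 0.0662, 0.0496 and 0.0572 in Ptprca mice and 0.0148, 0.0276, 0.0186 and 0.0250 in NSG mice, with no steady order. Since a clone at a higher pool level needs a smaller fold to reach a fixed mark, the shares carry the pool level with them. Across the 173 members, the pool level and the mean level in the mice had a Spearman's rho of 0.410 in Ptprca and 0.375 in NSG mice, and the mean levels in the 2 kinds of host had a rho of 0.716. These are descriptions across clones that share the same libraries.

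No member was without a read in all 31 libraries, but without the marrow library of mouse 8 there were 25 such members. In the NSG libraries 43 members had no read, and in the Ptprca libraries other than that one 46 had none. A total of 91 members stayed under 100 own-library CPM in each of the 31 libraries. Their median pool level was 1587 CPM, against 2281 CPM for the 82 that reached it in some library.

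At the lower pool bound, mCHERRY_2_Barcode_683940 (1003 CPM in the pool) and mCHERRY_2_Barcode_202394 (1006 CPM) reached at most 6.10 and 3.09 CPM in any library. Just outside it, mCHERRY_2_Barcode_192518 (999 CPM) and mCHERRY_2_Barcode_23760 (997 CPM) reached 916 and 74.2 CPM. At the upper pool bound, mCHERRY_2_Barcode_421908 (4944 CPM) and mCHERRY_2_Barcode_145794 (4883 CPM) reached 537 and 1683 CPM, while mCHERRY_2_Barcode_611025 (5030 CPM) and mCHERRY_2_Barcode_1050853 (5042 CPM), just outside, reached 2665 and 525 CPM. At the library bound, mCHERRY_2_Barcode_64434 and mCHERRY_2_Barcode_23793 peaked at 7386 and 7275 CPM, and mCHERRY_2_Barcode_588934 and mCHERRY_2_Barcode_345275 lay just above the bound at 10537 and 10618 CPM.

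Shares above that of the pool were rare, and in Ptprca mice nearly all were in bone marrow. In all, 20 members exceeded their pool share in some library, 7 of them in 1 library only. In the 8 Ptprca marrow libraries 14 members did so, with 2 to 7 members per library. In the 8 Ptprca spleen libraries a single member did so, mCHERRY_2_Barcode_64434 in mouse 17 at 1.01 times the mixed pool. In NSG mice 6 members did so in marrow and 7 in spleen, with 0 to 3 members per library. Taking each clone at its own highest library, the highest folds were 4.01 for mCHERRY_2_Barcode_64434 in the spleen of NSG mouse 14, 3.05 for mCHERRY_2_Barcode_103182 in the marrow of Ptprca mouse 20, and 2.63 for mCHERRY_2_Barcode_316135 in the marrow of Ptprca mouse 7. mCHERRY_2_Barcode_651935, which entered the pool at 1127 own-library CPM, followed at 2.56 in the spleen of NSG mouse 14, and mCHERRY_2_Barcode_163288 at 2.27 in the marrow of Ptprca mouse 17. The spleen of mouse 14 is among the libraries that stood apart.

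The member with the highest mean over the 16 mice, mCHERRY_2_Barcode_23793, persisted in both hosts. It entered the GMP pool at 3293 own-library CPM. It stood at 3129, 2026, 1548 and 792 own-library CPM in Ptprca mice 5 to 8 and at 2801, 2256, 1016 and 707 in Ptprca mixed mice 17 to 20. In NSG mice 13 to 16 it stood at 1650, 246, 4198 and 956, and in NSG mixed mice 21 to 24 at 1684, 22.8, 593 and 246. The groups overlap, and NSG mice spanned the wider range.

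mCHERRY_2_Barcode_61412 entered the pool at 4734 own-library CPM and was also found in most mice. It stood at 2216, 1776, 1367 and 2378 in Ptprca mice 5 to 8 and at 946, 4326, 1322 and 804 in mice 17 to 20. In NSG mice 13 to 16 it stood at 654, 226, 499 and 212, below the Ptprca mice with GMP cells alone. In NSG mixed mice 21 to 24 it stood at 306, 47.7, 0 and 195, below each of the Ptprca mixed mice.

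mCHERRY_2_Barcode_103182 entered the pool at 1156 own-library CPM, near the lower bound, and had reads in all 16 mice. It held 1664, 823, 1798 and 783 own-library CPM in Ptprca mice 5 to 8 and 1422, 1624, 1003 and 1662 in mice 17 to 20. It held 170, 200, 275 and 371 in NSG mice 13 to 16 and 13.3, 666, 271 and 127 in NSG mixed mice 21 to 24. Its levels in Ptprca mice lay above those in NSG mice, and mice with and without LSK cells overlapped.

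mCHERRY_2_Barcode_651935 had its highest group mean in NSG mice with GMP cells alone. It held 130, 1450, 686 and 625 own-library CPM in mice 13 to 16, against 60.0, 146, 0 and 288 in NSG mixed mice 21 to 24. In Ptprca mice it held 44.5, 280, 179 and 16.2 in mice 5 to 8 and 35.3, 30.7, 125 and 444 in mixed mice 17 to 20. The groups overlap, and the level of mouse 14 comes almost wholly from its spleen library, which stood apart (2881 own-library CPM, against 19.7 in its marrow).

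The first comparison asked how the host changed the share of each clone in recipients of GMP cells alone. The library bound of the choice applied to both hosts and was set on the same libraries that are compared here. Clones that reached the bound in either host are therefore missing from the members. How far this shaped the direction of the calls and their excess over all barcodes was not tested. All 173 members had a read and were tested among 602 mCherry barcodes at or over 100 CPM in the GMP pool. limma (log2 of own-library CPM plus 10, two-sided, adjusted over all 602) called 19 members at an adjusted p under 0.05, each higher in Ptprca mice. That is 10.98% of the members, beside 6.31% of all barcodes tested (5.81% called higher). By edgeR on the recovered reads, 15 of 173 members were called beside 51 of 602 barcodes. With that tool the share of the members was near that of all barcodes. Differences in log2 are on the scale of the level plus 10 own-library CPM, which understates those of clones at low levels. The median difference was 0.43 log2 over the members and 0.07 over all barcodes. Without the marrow library of mouse 8 it was 0.56 over 145 members and 0.35 over 369 barcodes. The levels of Ptprca and NSG mice did not overlap for 47 members, each higher in Ptprca (27.2%, beside 13.6% of all barcodes), and for none in the other direction (0.831% of all barcodes).

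mCHERRY_2_Barcode_181301 showed the lowest adjusted p of these members. It held 2066, 1692, 2807 and 770 own-library CPM in Ptprca mice 5 to 8 and 0.0864, 1.35, 0.0750 and 0 in NSG mice 13 to 16. The groups were far apart, with a difference of 7.33 ± 0.68 log2 (SE, limma, adjusted p = 0.000715). It had entered the pool at 4844 own-library CPM, so it lay below its pool share in each of these mice.

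mCHERRY_2_Barcode_840332 held 287, 2126, 600 and 1356 own-library CPM in mice 5 to 8 and at most 0.0864 in NSG mice 13 to 16. Its difference was 6.41 ± 0.77 log2 (limma, adjusted p = 0.000959). mCHERRY_2_Barcode_163288 held 570, 842, 1798 and 158 against at most 0.0691, and mCHERRY_2_Barcode_316135 held 201, 623, 2463 and 659 against at most 2.85. Both were called at an adjusted p of 0.00178 by limma. mCHERRY_2_Barcode_462413 held 384, 1149, 678 and 339 against at most 41.1 (5.21 ± 0.81 log2, limma adjusted p = 0.00385). In each of these 4 clones the lowest Ptprca mouse lay above the highest NSG mouse.

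mCHERRY_2_Barcode_736063, which entered the pool at 3255 own-library CPM, was called in both kinds of recipient. It held 750, 2137, 627 and 771 own-library CPM in Ptprca mice 5 to 8 and 0.173, 187, 0.0833 and 0.522 in NSG mice 13 to 16, a difference of 5.47 ± 1.09 log2 (limma, adjusted p = 0.0168). In Ptprca mixed mice 17 to 20 it held 2528, 3098, 121 and 273, and in NSG mixed mice 21 to 24 it held 0.174, 0.403, 0 and 9.55, a difference of 5.94 ± 1.11 log2 (limma, adjusted p = 0.0117). The hosts did not overlap in either comparison, and NSG mouse 14 alone held more than 10 own-library CPM among the NSG mice.

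The other 13 called members had Ptprca means of 36.6 to 657 own-library CPM. Of all 19, 13 had an NSG mean under 1 own-library CPM. mCHERRY_2_Barcode_157185 and mCHERRY_2_Barcode_218512 had no read in any NSG library of this comparison, and with 3 reads per library as the floor they were at least 318-fold and 134-fold lower there. Without the libraries that stood apart, 7 of 132 members tested were called, beside 18 of 338 barcodes. The share of the members in that setting was near that of all barcodes tested. Without the marrow library of mouse 8, 14 of 145 members were called, beside 28 of 369 barcodes. Without NSG mouse 14, 15 or 16 the count was 9, 8 or 9 of 173 members, beside 24, 20 or 22 of 602 barcodes. Each of these members was still higher in Ptprca mice. The values of the 2 hosts come from tables that were deposited separately, each column scaled on its own, with identical pool columns.

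The same comparison in mixed recipients used other mice, and the library bound was looser there on the own-library scale. Of the 173 members, 108 had a read there and were tested among 259 barcodes. limma called 16, each higher in Ptprca mice, which is 14.8% of those tested beside 11.6% of all barcodes. The share of the members is thus near that of all barcodes tested. The median difference was 0.64 log2 over the members and 0.57 over all barcodes. When each mouse was centred on its median barcode, the median over all barcodes moved from 0.57 to 0.13 log2. The calls among members became 15 higher and 11 lower in Ptprca, beside 28 higher and 41 lower among all 259 barcodes. A direction for the whole set thus depends on the scaling. The levels of the hosts did not overlap for 28 members, each higher in Ptprca (25.9%, beside 21.2% of all barcodes), and for none lower (0 of all barcodes).

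mCHERRY_2_Barcode_181301 again showed the lowest adjusted p, with 440, 320, 815 and 266 own-library CPM in Ptprca mixed mice 17 to 20 and 1.74, 0.807, 0 and 0 in NSG mixed mice 21 to 24. The difference was 5.34 ± 0.57 log2 (limma, adjusted p = 0.00119). mCHERRY_2_Barcode_408695 held 2394, 345, 539 and 873 against 1.04, 4.84, 0 and 0, a difference of 6.15 ± 0.70 log2 (limma, adjusted p = 0.00156). In recipients of GMP cells alone, NSG mouse 16 held 2111 own-library CPM of this clone, more than any Ptprca mouse of that comparison, and it was not called there. mCHERRY_2_Barcode_163288 (5.98 ± 0.83 log2), mCHERRY_2_Barcode_316135 (5.37 ± 0.85) and mCHERRY_2_Barcode_320111 (3.59 ± 0.58) were called with adjusted p-values of 0.00349, 0.00565 and 0.00565 by limma. mCHERRY_2_Barcode_64434 (5.45 ± 0.85) shared the last of these adjusted p-values. Their levels did not overlap between hosts.

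Of the 19 members called in recipients of GMP cells and the 16 called in mixed recipients, 10 were shared (52.6% and 62.5%). All 19 were tested in the mixed recipients, where 11 (57.9%, beside 21.2% of all barcodes) had levels that did not overlap. Each of the 19 had a higher mean log2 level in Ptprca mice there, where the median of all barcodes was itself 0.57 log2 higher. Neither mouse group enters both comparisons. Without Ptprca mouse 18 or NSG mouse 22 the count in mixed recipients was 10, of 104 and 108 members tested. These counts stood beside 19 of 246 and 20 of 257 barcodes. edgeR on the recovered reads called none of the members in mixed recipients, beside 1 of 259 barcodes.

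The next comparison asked whether LSK-derived cells in the same mouse changed the share of these clones among GMP-derived cells. On the own-library scale the library bound was looser in the mixed recipients. In Ptprca mice none of the 173 members passed the threshold by limma, and none of the 602 barcodes did (0% called). At an unadjusted p under 0.05 there were 10 members, and edgeR called 0. The levels of 7 members were lower in all mixed recipients than in all recipients of GMP cells alone (4.05%, beside 2.16% of all barcodes), and 1 was higher (0.578%, beside 0.166%). The median difference was -0.15 log2 over the members and -0.04 over all barcodes. Without the marrow library of mouse 8 it was -0.06 over 127 members and -0.10 over 328 barcodes. mCHERRY_2_Barcode_181301, for example, had a mean of 1834 ± 847 own-library CPM without and 460 ± 248 with LSK cells (SD, n = 4 each). Its difference of -1.96 ± 0.63 log2 did not pass the threshold (limma, adjusted p = 0.587).

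In NSG mice 130 members had a read in the compared mice and were tested among 272 barcodes. None of them passed by limma, with 0% of all barcodes called, 3 members at an unadjusted p under 0.05 and 0 called by edgeR. The levels of 3 members were lower in all mixed recipients (2.31%, beside 1.84% of all barcodes), and none were higher (0 of all barcodes). The numbers of GMP-derived cells given with and without LSK cells are not known here, so an effect of LSK cells and of a smaller GMP inoculum cannot be told apart.

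mCHERRY_2_Barcode_64434 was the exception in the comparison of the LSK effect between hosts. It entered the GMP pool at 1854 own-library CPM and the mixed pool at 1830. In NSG mice with GMP cells alone it stood at 3267, 4172, 1374 and 2204 own-library CPM in mice 13 to 16. In NSG mixed mice 21 to 24 it stood at 10.9, 23.5, 0 and 43.6, so the groups were far apart. In Ptprca mice the groups overlapped, with 290, 1565, 384 and 1356 in mice 5 to 8 and 1058, 907, 3510 and 391 in mixed mice 17 to 20.

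The mixed-minus-GMP difference of mCHERRY_2_Barcode_64434 was 0.61 ± 0.85 log2 in Ptprca mice and -6.68 ± 1.36 in NSG mice (SE, limma, adjusted p = 0.655 and 0.149). The NSG difference alone passed under 5 alternatives, among them an offset of 100 CPM and a fit without trend. The test of the difference between hosts gave 7.29 ± 1.17 log2 (limma, adjusted p = 0.0104), and it was the only one of 602 barcodes called (0.166%). It was the same sign in both tissues, at 6.94 log2 in marrow alone (limma, adjusted p = 0.442) and 5.74 in spleen alone (limma, adjusted p = 0.555), where it did not pass. Without a pool filter the adjusted p by limma was 0.430, and over all alternatives it ranged from 0.00139 to 0.555. Without Ptprca mouse 8, 379 barcodes were tested and 7 of 147 members were called by limma (4.76%, beside 2.90% of all barcodes), 1 higher, which was mCHERRY_2_Barcode_64434, and 6 lower, the opposite direction to this clone. The spleen of mouse 14, where this clone had its highest level, is among the libraries that stood apart, and without those libraries the difference was 7.27 log2 and still called.

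Bone marrow and spleen of the same mouse were then compared. In Ptprca mice the members held more of the marrow than of the spleen. Their summed share in marrow was 3.55%, 4.36%, 4.55% and 2.65% in mice 5 to 8 and 3.59%, 3.50%, 3.16% and 2.56% in mice 17 to 20. In the spleens it was 1.52%, 0.992%, 0.886% and 0.651%, and 0.879%, 0.620%, 0.688% and 0.733%. The marrow value was higher in 8 of 8 mice, 4.22 ± 1.01 times the spleen value (SD, n = 8), with a range of 2.34 to 5.64. The members at or over 100 own-library CPM numbered 25 to 37 in marrow and 13 to 26 in spleen.

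In NSG mice no such order was seen. Marrow over spleen was 5.74, 0.304, 0.393 and 3.01 in mice 13 to 16 and 0.897, 3.64 and 1.72 in mixed mice 21 to 23. The marrow value was higher in 4 of 7 mice, with a mean ratio of 2.24 ± 2.00 (SD, n = 7). The members at or over 100 own-library CPM numbered 2 to 10 in marrow and 2 to 7 in the spleens of these mice.

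Of single members, 5 were called higher in marrow in Ptprca mice by limma with the mouse as a block, which is 2.89% of the members beside 3.49% of all barcodes and thus near the background. The median difference was 0.17 log2 over the members and 0.04 over all barcodes. Without the marrow library of mouse 8, and so without that pair, it was 0.47 over 125 members and 0.30 over 323 barcodes. mCHERRY_2_Barcode_23793 had a lowest, median and highest level of 1082, 2639 and 5800 own-library CPM in marrow and 250, 536 and 1255 in spleen. Its difference was 2.15 ± 0.43 log2 (limma, adjusted p = 0.0310). mCHERRY_2_Barcode_840332 had 371, 949 and 4067 in marrow and 24.8, 182 and 309 in spleen, and mCHERRY_2_Barcode_316135 had 271, 1168 and 4797 against 82.0, 137 and 177. In both clones the lowest marrow library lay above the highest spleen library.

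mCHERRY_2_Barcode_103182 had 940, 2229 and 3030 own-library CPM in marrow and 295, 520 and 1024 in spleen, and mCHERRY_2_Barcode_161830, a clone of low level, had 10.7, 94.7 and 737 against 0.730, 13.7 and 53.0. They were called with adjusted p-values of 0.0345 and 0.0390 by limma. These calls rest on few mice. Without Ptprca mouse 6 or 18 no member was called, and without 7, 17 or 20 a single member was. Without 5 there were 2 and without 19 there were 3. Of all barcodes, 9 were called without mouse 6, 7 or 18, 11 without 17, 12 without 20 and 13 without 5 or 19. With all mice 21 were called, so the calls fell over all barcodes as well. Without the libraries that stood apart, which leaves 4 mice with both tissues, none of 113 members and 0 of 282 barcodes were called.

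In NSG mice none of 130 members differed between tissues by limma (0% of 272 barcodes called, 1 member at an unadjusted p under 0.05, 0 by edgeR). The difference of the tissue effect between the hosts was tested in a single fit over both hosts, added after seeing the data. It called none of the 173 members (0% of 602 barcodes, 14 members at an unadjusted p under 0.05, 0 by edgeR), so for single clones the marrow effect was not shown to differ between hosts. mCHERRY_2_Barcode_316135 had the lowest p of the members in that fit, with a difference of 3.05 ± 0.73 log2 (limma, adjusted p = 0.377).

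Other barcodes of the pools are set beside the members as follows. The members' summed share in recipients of GMP cells alone was 0.0617 times the pool in Ptprca and 0.0225 times in NSG mice. For the 32 barcodes at or over 5000 CPM in the GMP pool under the same library bound it was 0.0498 and 0.00729 times. For the 381 barcodes from 100 to under 1000 CPM it was 0.0587 and 0.0126 times. For 151 LSK barcodes of the same pool range, chosen alike in recipients of LSK cells, it was 0.0881 and 0.0244 times, over 3 Ptprca and 4 NSG mice. These differences were not tested, since the library bound shaped each set. The 9 barcodes of the same pool range that crossed the bound held 2.77% of the GMP pool and 37.2% ± 2.22 of mCherry reads in Ptprca and 41.0% ± 3.67 in NSG recipients of GMP cells (SD, n = 4 each).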

How the data were processed

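Barcodes in genomic DNA of sorted cells were amplified in 2 PCRs per sample, and the authors deposited 1 column of CPM for each tissue or pool, 48 columns for 96 submitted samples, in 1 table per host. The tables are named as filtered and collapsed, per the labels, but the rules for this and for joining the PCR duplicates are not given in the sources used here. Bowtie 1.2.2 and R 3.6 were used, per the submitters' processing notes. The values were whole multiples of a step per column, so reads were recovered (100% of values whole within 0.01 of a read). Columns of no sample numbered 0.

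The mCherry values were rescaled to the mCherry reads of each library, and a mouse was the mean of its tissues. Tests used limma 3.58.1 (R 4.3.3) on log2 of that value plus 10, with a trend in eBayes and Benjamini-Hochberg adjustment over all mCherry barcodes at or over 100 CPM in the GMP pool with a read in a compared library. A call is an adjusted p under 0.05. Marrow and spleen of the same mouse were blocked, the mouse being given by the labels. edgeR 4.0.16 on the recovered reads called 15 members between hosts in recipients of GMP cells, 0 in mixed recipients, 2 for the LSK effect by host, 1 for tissue in Ptprca and 0 in the other fits. Of all barcodes it called 51 of 602, 1 of 259, 5 of 602 and 10 of 602 in the named fits, in that order. Other values came from Python 3.11.15, pandas 2.3.3 and numpy 2.4.6. The tests were tested on simulated data. The spread between simulated mice was set in advance and not taken from these mice, so it can differ from theirs.

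The floor is 3 reads and covers counting error only, since PCR reads are not independent molecules. Whether mice of a group came from separate experiments is not given here, so p-values measure the spread between these mice. Alternatives changed the offset, filter, scaling, tool, tissue, bounds and mice. Barcodes are known here by name only. Those described are the 5 with the highest mean over the 16 mice, the 5 with the largest fold in 1 library, up to 5 called per direction and fit by adjusted p, and the 2 nearest to each bound on both sides. The members and lists were chosen with earlier results of these data known.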

Additional observations from a re-analysis of the deposited data

Results flagged for a closer look

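In 63 groups of 4 mice that were examined, 13 held a mouse that lay apart from the other 3 by Dixon's criterion. Chance would give this in about 1 of 20 groups only for unselected, normally distributed values. The levels of single clones were skewed, and many of these clones were named for high levels. The count of 13 therefore cannot be set against that rate and is a description only. In NSG mixed recipients, mouse 23 had 8 members at or over 10 own-library CPM, below the 18 to 20 of the other mice. In Ptprca recipients of GMP cells alone, mouse 8 had reads of 173 members, above the 85 to 98 of the others.

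Single clones had such a mouse in several groups. mCHERRY_2_Barcode_61412 stood at 4326 own-library CPM in Ptprca mixed mouse 18 and at 804 to 1322 in the others. mCHERRY_2_Barcode_736063 stood at 187 in NSG mouse 14 (0.0833 to 0.522 in the others) and at 2137 in Ptprca mouse 6 (627 to 771). mCHERRY_2_Barcode_408695 stood at 2111 in NSG mouse 16, against 6.00 to 41.5.

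In NSG mixed recipients, mCHERRY_2_Barcode_840332 stood at 221 own-library CPM in mouse 22 (0 to 13.9 in the others). mCHERRY_2_Barcode_462413 stood at 267 in mouse 21 (0 to 25.4). mCHERRY_2_Barcode_161830 stood at 129.6 in mouse 23 (0 to 0.521). mCHERRY_2_Barcode_145794 stood at 3736 in mouse 24 (0 to 53.0). The latter clone also stood at 266 in Ptprca mouse 6 (0.219 to 36.7). mCHERRY_2_Barcode_421908 stood at 321 in Ptprca mouse 6 (11.7 to 28.6) and at 134.5 in Ptprca mixed mouse 17 (0 to 0.207). Mouse 6 was the high mouse for 3 of these clones, and its marrow library stood apart. Any part of that library in these values was not tested.

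The mixed-minus-GMP difference of mCHERRY_2_Barcode_64434 differed between hosts by 7.29 log2, in a test of the difference itself (limma, adjusted p = 0.0104). It was not called in marrow alone, in spleen alone or without a pool filter. The presence of LSK cells and the number of GMP-derived cells given cannot be told apart here.

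Reads of members were also present in marrow of mice that received LSK cells alone, which no comparison used. They summed to 27.9 CPM in mouse 1, 0.806 in mouse 2, 7.69 in mouse 3, 1.04 in mouse 11 and 36.0 in mouse 12.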

How the results depend on the processing

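Settings that left out libraries that stood apart or the marrow of mouse 8, and the test of tissue by host, were added after seeing the data. The members called between hosts in recipients of GMP cells (19) numbered 33 with an offset of 1 CPM, 9 with 100, 10 without a pool filter, 10 in marrow alone, 7 without the libraries that stood apart, and 8 to 22 with 1 mouse left out. The members tested numbered 173, or 132 without the libraries that stood apart and 144 without Ptprca mouse 8. Of all barcodes, 64 of 602, 21 of 602, 24 of 1915, 24 of 602 and 18 of 338 were called in the first 5 of these settings. The count of 22 came without Ptprca mouse 8, beside 42 of 364 barcodes. Those in mixed recipients (16) numbered 5 without a pool filter, 26 after centring, 0 by edgeR and 10 in marrow alone. Of all barcodes, 11 of 1183, 69 of 259, 1 of 259 and 19 of 245 were called in these settings, in that order. The members tested there numbered 108, or 103 in marrow alone. After centring and in marrow alone, the share of the members was near that of all barcodes. With 1 mouse left out the count was 10 to 17, the highest of 100 members beside 34 of 242 barcodes. For the presence of LSK cells in NSG mice (0), mCHERRY_2_Barcode_64434 was called lower, 1 member, with an offset of 100 CPM, a filter on the mean, no trend, CPM as deposited or centring. Of all barcodes, 1, 2, 1, 4 and 1 were called in these settings, among 272 tested, or 48 with the filter on the mean. The count remained 0 in Ptprca mice. For the LSK effect by host (1) the count was 0 without a pool filter, 0 in marrow or spleen alone, 2 by edgeR and 1 to 7 with 1 mouse left out. edgeR called 5 of 602 barcodes in all, and the fit that called 7 members called 11 of 379.

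The members called between tissues in Ptprca mice (5) numbered 1 with an offset of 100 CPM, 15 with a filter on the mean, 0 without a pool filter, 2 after centring, 1 by edgeR, 0 without the libraries that stood apart and 0 to 5 with 1 mouse left out. The 15 were of 41 members tested, beside 40 of 101 barcodes, and thus near the background. With the offset of 100 CPM, after centring and by edgeR, 10, 12 and 10 of 602 barcodes were called. Without the replicate block of marrow and spleen from the same mouse the count was 5, and in NSG mice it was 0 with and without it. The block left these counts of called members as they were, while in Ptprca mice 21 barcodes were called with it and 20 without. Tissue by host (0) gave 2 of 27 members with a filter on the mean, beside 4 of 78 barcodes.

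Members at or over 100 own-library CPM per Ptprca recipient of GMP cells (33.25; summed share 2.40%) numbered 63.5 at 10 CPM, 7 at 1000, 112.75 at any read, 20.25 in spleen and 41.75 without a library bound. Their sum was 3.78% in marrow, 1.01% in spleen, 3.07% with a bound of 20000 CPM and 39.6% without one. Leaving out 1 mouse gave 31.3 to 36.7 members and 2.29% to 2.64%. In Ptprca mixed recipients (26.75; 1.97%) the numbers were 48.75, 5.5, 74.75, 15.5 and 34, with 21.75 and 1.22% in CPM as deposited and 29.75 with a bound of 20000 CPM. Their sum was 3.20% in marrow, 0.730% in spleen, 1.65%, 2.80% and 36.2% with bounds of 5000, 20000 and none, and 2.32% without the libraries that stood apart. Leaving out 1 mouse gave 25.7 to 28 members and 1.88% to 2.07%.

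In NSG recipients of GMP cells (9.25; 0.876%) the numbers were 18.5, 2.5, 60, 6 and 17.5, and 12.5 with a bound of 20000 CPM. Their sum was 0.424%, 1.65% and 41.8% with bounds of 5000, 20000 and none. Leaving out 1 mouse gave 8.33 to 10.3 members and 0.852% to 0.917%. In NSG mixed recipients (6.5; 0.746%) they numbered 16.25, 2 and 33.5 at the 3 marks and 13.75 without a bound, with a sum of 1.66% and 45.5% at 20000 and none. Leaving out 1 mouse gave 4.67 to 7.67 members and 0.357% to 0.956%.

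For called members named in the text, 250 of 317 alternative values kept direction and call, 67 lost the call and 0 turned direction. Most losses were among the tissue calls in Ptprca mice, each lost in 8 to 13 of 19 alternatives. The other named calls were each lost in 0 to 3. The cause was not tested for any of these. Below about 1.92 own-library CPM a clone cannot be told from one without a read in the shallowest library.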
